A study of Mus musculus with 27 samples.

Results

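The response of TRAP1 KO M2 macrophages to medium conditioned by malignant peripheral nerve sheath tumor cells (MPNST-CM) was read from 6 of the 27 RNA libraries of the study. These were the 3 batch 1 libraries of TRAP1 KO M2 macrophages kept in MPNST-CM and the 3 batch 1 libraries of the same kind of cells kept in control medium (DMEM). The libraries were chosen by their labelled genotype, polarization, medium and batch, and every gene that passed a filter on low counts, 13614 in all, was tested. The remaining libraries came from wild-type (WT) macrophages, from macrophages never given IL-4 (Mφ), or from batch 2. All animals were female C57BL/6 mice aged 3 to 4 months, either WT or TRAP1 KO. Bone marrow cells of each genotype became macrophages with L929-conditioned medium, a source of M-CSF. For the M2 groups IL-4 was then given at 10 ng/mL for 24 h. MPNST-CM or control medium followed for 48 h, so that both groups compared here had lost TRAP1 and had seen IL-4, and only the last medium set them apart. The sources used here do not describe how the TRAP1 allele was made, and the labels do not say which MPNST cells conditioned the medium. They also do not say whether the replicates came from separate animals or cultures. The p-values below therefore measure the spread between these libraries, which may be technical.

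TRAP1 is a chaperone of the HSP90 family in the mitochondrial matrix, known as a brake on succinate dehydrogenase. Macrophages read the signals around them and take on different states. IL-4 acts through STAT6 to raise genes of alternative (M2) activation such as Retnla and Mrc1, interferons raise antiviral genes through JAK kinases, and shortage of amino acids or protein-folding stress acts through ATF4. Tumor-conditioned media can carry growth factors, cytokines and lactate, and macrophages exposed to them are studied as a model of the macrophages found in tumors.

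The 6 libraries held 7443943 to 9089792 reads counted in genes, and levels are given as edgeR's CPM, counts scaled to a common library size after TMM normalization. Trap1 had no count in any of the 12 batch 1 libraries labelled TRAP1 KO, against 83 to 144 counts in each of the 12 WT libraries. Xist, the RNA that coats the inactive X chromosome of female cells, ranged from 254 to 504 CPM over those WT libraries and from 0 to 1.14 CPM over the KO libraries, and the Y-linked Ddx3y had no count in either. Both groups compared here lacked Xist, but any difference between the genotypes cannot be told apart from it. The 10 macrophage markers listed summed to 10667 to 11328 CPM in control medium and 8897 to 9760 CPM in MPNST-CM, with 2 higher and 3 lower, and Adgre1, Itgam and Spi1 (736, 939 and 347 CPM on average in control medium) did not pass the test. The part of the lower marker sum in the results was not tested. Mitochondrially encoded mRNAs made up 5.15 to 5.99% of counts in control medium and 3.00 to 3.23% in MPNST-CM; the part of this difference in the results was not tested. The TRAP1 KO M2 libraries of batch 2 stood apart from their labels. The library labelled M2_CM_KO replicate 4 ranked its genes most like the WT M2 control libraries (Spearman's rho 0.983). The TRAP1 KO M2 control libraries came close behind (0.982), above its own labelled group (0.949). The library labelled M2_DMEM_KO replicate 4 was most like the TRAP1 KO Mφ libraries in MPNST-CM (rho 0.969). TRAP1 KO M2 in MPNST-CM came next (0.964), above its own labelled group (0.913). These batch 2 libraries were left out of all values below unless stated, and results with them are given beside the counts they change. With them added, the sign of the fold change turned, with no call, for Trib3, Oasl1, Vegfa, Vegfc, Il1b, Nr4a2, Rnase2a, Cldn11 and Fth1 among the genes described below. Of 394 values of the named genes computed with these libraries, without and with a batch term, 267 lost their call at the same sign.

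The response to MPNST-CM was broad. Among the genes that rose most were the chemokines Ppbp and Cxcl3, the receptor Trem1 and thrombospondin 1, and among those that fell most were Mamdc2, the ribonuclease Ear2, Npas4 and Galnt9. At an adjusted p under 0.05 (edgeR's quasi-likelihood test, Benjamini-Hochberg adjustment), 5016 of 13614 genes (36.8%) changed. Of these 2268 were higher (16.7%) and 2748 lower (20.2%) in MPNST-CM. The median log2 fold change of all genes tested was -0.01. The 3 values of one medium did not overlap the 3 of the other for 6696 genes (49.2%). A change of at least 1 on the log2 scale with an adjusted p under 0.05 was seen in 1940 genes, 797 higher and 1143 lower. When the batch 2 libraries were put back, 826 genes passed, and 799 of them were among the 5016 and moved the same way.

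Among the genes that rose most, Ppbp, the chemokine precursor of platelets, was at 0.600, 0.803 and 1.24 CPM in control medium and at 394, 446 and 391 CPM in MPNST-CM, a log2 fold change of 8.83 ± 0.29 (SE, n = 3 per group, adjusted p = 8.89e-16). Pf4, platelet factor 4, rose from 365, 428 and 357 to 8534, 9837 and 8137 CPM (log2 4.53, adjusted p = 4.01e-20). For both chemokines every MPNST-CM library was far above every control library, and the rule for naming them required that the media not overlap. Both are among the 5 megakaryocyte markers listed, of which Gp9 and Gp1bb had under 3 counts in each of the 6 libraries. The last of them, Itga2b, did not pass the filter on low counts. The source of these transcripts was not tested. Thbs1, thrombospondin 1, a matrix protein known as an inhibitor of vessel growth, was at 12.2, 11.6 and 13.7 CPM in control medium. In MPNST-CM it reached 2639, 2505 and 2415 CPM (log2 7.65 ± 0.17, adjusted p = 1.24e-20). F5, coagulation factor V, went from 3.00, 3.08 and 3.03 to 329, 321 and 327 CPM (log2 6.74, adjusted p = 7.71e-20). The neutrophil chemokine Cxcl3 went from 0.901, 0.268 and 0.552 to 109, 103 and 90.6 CPM (log2 7.45, adjusted p = 2.48e-10). Trem1, a receptor that amplifies inflammatory signaling, had 0, 0 and 2 counts in control medium and 215, 254 and 235 counts in MPNST-CM (adjusted p = 4.76e-17). Serpinb2, an inhibitor of plasminogen activators, rose by 6.79 on the log2 scale, the phosphatase Ptprf by 6.56, the gap junction protein Gja1 by 6.49, the cystatin Csta2 by 6.38 and the aquaglyceroporin Aqp9 by 5.98. Slfn1 rose from a mean of 0.470 to 34.3 CPM, and its close relative Slfn4 had 0, 0 and 6 counts in control medium and 168, 196 and 191 in MPNST-CM. Reads of Schlafen genes that resemble each other may be lost or assigned to either, and their separate values are uncertain.

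Of the genes that fell, Fn1, fibronectin, was at 402, 404 and 405 CPM in control medium and 10.98, 12.9 and 12.4 CPM in MPNST-CM, a log2 fold change of -5.06 ± 0.22 (adjusted p = 3.90e-14). Mamdc2, which encodes a secreted protein with MAM domains, fell from 78.0, 58.4 and 78.6 to 1.45, 0.678 and 0.886 CPM (log2 -6.16, adjusted p = 1.28e-15). Ear2, an eosinophil-associated ribonuclease, fell from 17.4, 18.1 and 16.5 to 0, 0.113 and 0.633 CPM. Its relative Rnase2a fell from 224, 233 and 222 to 16.8, 16.6 and 19.2 CPM; these genes are near-identical and their reads may be lost or assigned to either. Losses of the same order were seen in the chemokine Cxcl14 (log2 -5.10), the glycosyltransferase Galnt9 (-5.40), Bex1 (-5.31), the zinc transporter Tmem163 (-5.17), the nonclassical class I molecule H2-M2 (-4.50), the plexin-domain protein Plxdc2 (-4.38) and Tmem176b (-4.92). The activity-dependent factor Npas4 fell by 5.52. Dnmt3aos, antisense to Dnmt3a, fell by 4.83, and without a stated strand setting its reads cannot be told from those of Dnmt3a.

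**Figure D1:**
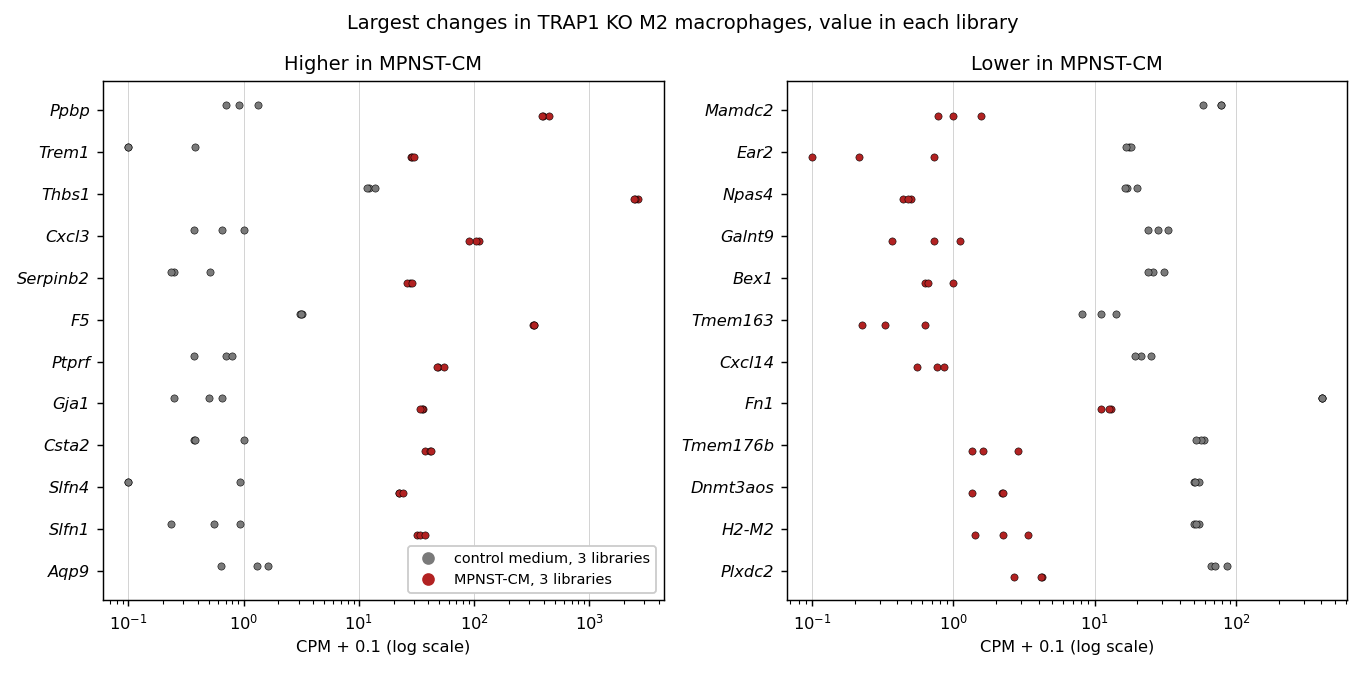
CPM (plus 0.1, log axis) in each of the 6 libraries for the 12 genes with the largest gains (left) and the 12 with the largest losses (right) in MPNST-CM; gray points are control medium and red points MPNST-CM, 3 libraries each. In none of the 24 genes do the points of both media overlap, as the rule for choosing them requires, and Thbs1 shows the highest MPNST-CM values, 2415 to 2639 CPM.

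The largest changes in mean CPM were in genes of different kinds. Lpl, lipoprotein lipase, fell from 16193, 17337 and 16706 to 2969, 3169 and 2911 CPM (log2 -2.47). Mmp12, macrophage elastase, fell from 9856, 9742 and 9773 to 1280, 1380 and 1296 CPM (log2 -2.89, adjusted p = 4.76e-17), and Gpnmb, a lysosome-associated glycoprotein, fell from 25147, 22586 and 25020 to 14915, 13342 and 15348 CPM (log2 -0.74). All 3 genes were lower in every MPNST-CM library than in any control library, as the rule for choosing them requires. Gains of this kind were seen for the lysosomal protease Ctsl, from 3713, 3279 and 3678 to 10849, 11628 and 10850 CPM (log2 1.64), and for the chemokine Ccl6, from 3077, 3185 and 2988 to 7289, 7183 and 6958 CPM (log2 1.21). Mrc1, the mannose receptor CD206, rose from 597, 516 and 561 to 3485, 3769 and 3289 CPM (log2 2.65 ± 0.08, adjusted p = 8.66e-20). Fth1, the heavy chain of ferritin, rose by 0.27 (adjusted p = 0.0118), a call lost without control replicate 3 (log2 0.24, adjusted p = 0.0768). Thbs1 and Pf4 also belonged to the 6 largest gains in mean CPM, and the mitochondrially encoded ND4 and CYTB (log2 -0.98 and -0.97) and the protease Ctsb (-0.65) to the 6 largest losses.

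Interferon-stimulated genes rose almost without exception. Of the 36 listed, 34 rose and none fell. The counts of this list and of those below are to be read against all genes tested, of which 16.7% rose and 20.2% fell. All 20 antiviral effectors rose (median log2 fold change 2.13, against -0.01 over all genes tested), and 14 of the 16 sensors and transcription factors rose, with a median of 1.80. These genes respond to type I interferon through a DNA element, the interferon-stimulated response element. The core of that element, GAAA followed after 2 bases by GAAA, on either strand, was searched in 300-base promoter windows of RefSeq (mouse build GRCm38.p6, not the build of the counts) that surround each annotated start. It was found in 18 of the 27 listed genes with a window (66.7%) and in 3.99% of the 27025 genes with a window. A match describes the letters only. The windows of Isg15, minus strand of chr4:156200769-156201068 with its first match at -78 from the start, and of Ifit1, plus strand of chr19:34640639-34640938 with its first match at -104, are shown because these genes were among those that rose most and hold overlapping or repeated matches, in capitals:
Isg15: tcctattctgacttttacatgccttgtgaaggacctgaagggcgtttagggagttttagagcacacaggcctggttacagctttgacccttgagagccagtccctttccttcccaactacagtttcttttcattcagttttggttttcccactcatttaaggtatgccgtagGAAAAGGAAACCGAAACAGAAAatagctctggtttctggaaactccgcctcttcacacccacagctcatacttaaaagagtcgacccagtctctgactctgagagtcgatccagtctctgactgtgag
Ifit1: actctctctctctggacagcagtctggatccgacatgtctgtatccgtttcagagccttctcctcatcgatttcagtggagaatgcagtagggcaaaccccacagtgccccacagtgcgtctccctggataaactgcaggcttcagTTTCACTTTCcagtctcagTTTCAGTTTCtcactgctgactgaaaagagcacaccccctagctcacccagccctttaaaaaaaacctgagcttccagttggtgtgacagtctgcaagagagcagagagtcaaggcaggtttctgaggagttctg

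Isg15, a ubiquitin-like protein attached to other proteins after interferon, was at 1.65, 0.536 and 1.65 CPM in control medium and 20.1, 20.6 and 15.6 CPM in MPNST-CM (log2 3.87 ± 0.27, adjusted p = 5.67e-12). Ifit1, which binds viral RNA, was at 59.3, 34.8 and 55.7 CPM and rose to 538, 543 and 447 CPM (log2 3.35, adjusted p = 4.49e-09). Irf7, the factor that amplifies interferon production, rose from 17.1, 23.3 and 17.4 to 235, 238 and 237 CPM (log2 3.61 ± 0.11, adjusted p = 5.01e-19). In all 3 genes every MPNST-CM library stood above every control library. The media did not overlap for 49.2% of all genes tested. Ifit3 rose from 28.4, 26.2 and 23.7 to 213, 216 and 207 CPM (log2 3.02), although reads of it and of its near-identical copy Ifit3b may be lost or assigned to either. Other gains were those of Oasl1 (log2 4.05), Ifi44 (3.87), Ifit2 (2.37), Rsad2 (2.15) and Usp18 (1.49), the protease that removes ISG15. The members that did not pass were Irf1 (log2 -0.14, adjusted p = 0.218) and Ifi205 (2.89, adjusted p = 0.0807). Cxcl10, an interferon-induced chemokine listed with the CXC ligands, was at 6.60, 7.498 and 6.90 CPM in control medium and 5.42, 6.33 and 4.05 CPM in MPNST-CM (log2 -0.40, adjusted p = 0.131). With the batch 2 libraries added, 2 of the 36 genes passed, and none with a term for batch.

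Genes of the integrated stress response rose as well. Of 29 tested genes, 24 rose and 2 fell. Among the targets of ATF4, which make and import amino acids and charge tRNAs, 18 of 20 rose and none fell (median log2 1.60), and among the factors of the pathway 6 of 9 rose and 2 fell. The amino acid response core TGATGNAA was found on either strand of the promoter window in 8 of 26 listed genes with a window (30.8%). In all genes with a window the share was 4.51%. All 8 rose or fell in the test, as did 23 of the 26, so the match does not set the responding genes apart. Asns, asparagine synthetase, and Trib3, a pseudokinase that feeds back on ATF4, are shown since both rose more than 4 log2 units. The windows are the minus strand of chr6:7693160-7693459 for Asns (match at -23) and the minus strand of chr2:152344011-152344310 for Trib3 (match at 14), with the match in capitals:
Asns: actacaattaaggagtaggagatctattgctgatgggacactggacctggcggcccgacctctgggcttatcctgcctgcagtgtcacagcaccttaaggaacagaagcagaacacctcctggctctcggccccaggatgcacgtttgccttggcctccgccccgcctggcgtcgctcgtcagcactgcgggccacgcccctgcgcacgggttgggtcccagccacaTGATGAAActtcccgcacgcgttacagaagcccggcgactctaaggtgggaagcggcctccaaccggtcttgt
Trib3: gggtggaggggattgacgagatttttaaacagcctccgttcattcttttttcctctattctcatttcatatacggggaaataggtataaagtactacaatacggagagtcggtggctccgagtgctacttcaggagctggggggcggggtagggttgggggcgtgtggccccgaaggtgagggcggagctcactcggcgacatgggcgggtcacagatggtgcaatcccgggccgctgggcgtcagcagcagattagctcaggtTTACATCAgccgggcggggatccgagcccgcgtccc

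Asns was at 5.85, 6.83 and 5.38 CPM in control medium and 122, 122 and 113 CPM in MPNST-CM (log2 4.30 ± 0.23, adjusted p = 4.38e-13). Trib3 was at 2.70, 2.28 and 1.65 CPM and rose to 40.7, 46.1 and 37.97 CPM (log2 4.23, adjusted p = 3.90e-12). Atf4, the transcription factor at the center of the pathway, rose from 196, 203 and 204 to 587, 522 and 609 CPM (log2 1.51, adjusted p = 4.27e-14). The 3 genes showed no overlap between media, as did 49.2% of all genes tested. The serine synthesis enzyme Phgdh rose by 4.01 and the one-carbon enzyme Mthfd2 from 26.6, 29.9 and 25.1 to 172, 179 and 166 CPM (log2 2.66). Chac1, which degrades glutathione, had 3, 0 and 0 counts in control medium and 51, 68 and 63 in MPNST-CM (adjusted p = 4.28e-09). Atf5 rose by 2.88, Cebpb by 1.49 and Ddit3 (CHOP) by 1.08. Atf3, itself an induced factor of this pathway, fell from 420, 443 and 442 to 117, 112 and 115 CPM (log2 -1.92, adjusted p = 9.74e-17), and the amino acid sensing kinase Eif2ak4 (GCN2) fell by 0.72. Psat1 (log2 0.10, adjusted p = 0.536) and Sesn2 (0.88, adjusted p = 0.524) were the targets that did not pass. ER chaperones, the other arm of protein-folding stress, did not rise with them. Of 18 tested, 11 fell and 2 rose, with a median of -0.33. Calr, calreticulin, fell from 1288, 1411 and 1328 to 435, 428 and 489 CPM (log2 -1.57), and Hspa5 (BiP) fell by 0.58. With the batch 2 libraries added, 3 of the stress response genes rose and 1 fell, with or without the batch term.

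Transcripts of dividing cells fell. All 19 tested genes of mitosis fell (median log2 fold change -1.85), and 16 of 18 genes of DNA replication fell, with a median of -0.77. Ccnb1, the mitotic cyclin B1, was at 24.3, 35.5 and 30.2 CPM in control medium and 6.22, 7.23 and 5.82 CPM in MPNST-CM (log2 -2.22 ± 0.15, adjusted p = 3.31e-12). Top2a, the topoisomerase of dividing cells, went from 126, 127 and 142 to 49.5, 39.7 and 54.5 CPM (log2 -1.46, adjusted p = 0.000543). The proliferation marker Mki67 went from 61.4, 57.7 and 66.7 to 13.6, 16.2 and 14.7 CPM (log2 -2.06, adjusted p = 0.000832). For all 3 genes the highest MPNST-CM value lay below the lowest control value, where 49.2% of all genes tested showed no overlap of the media. Pcna, the sliding clamp of replication, fell by 1.46 and the helicase subunit Mcm5 by 0.99. Gins2 (log2 -0.69, adjusted p = 0.0901) and Cdt1 (-0.21, adjusted p = 0.163) did not pass. Regulators of the cycle went both ways, with 4 of 14 higher and 5 lower, beside 16.7% higher and 20.2% lower over all genes tested. Cyclin D2, Ccnd2, which acts in the first growth phase, rose from 26.0, 31.1 and 27.4 to 191, 192 and 190 CPM (log2 2.76, adjusted p = 1.89e-17). In bulk libraries fewer dividing cells and less of these RNAs per cell cannot be told apart. With the batch 2 libraries added, 1 of the 51 tested genes of the list fell, and none with the batch term. An E2F element, TTTGGCGC or TTTCCCGC on either strand, was found in 6 of 15 replication genes with a promoter window (40.0%), in none of 16 mitosis genes and in 1.80% of all genes with a window. The window of Mcm5, plus strand of chr8:75109259-75109558, is shown as an example of the replication genes, with its match at -149 in capitals:
Mcm5: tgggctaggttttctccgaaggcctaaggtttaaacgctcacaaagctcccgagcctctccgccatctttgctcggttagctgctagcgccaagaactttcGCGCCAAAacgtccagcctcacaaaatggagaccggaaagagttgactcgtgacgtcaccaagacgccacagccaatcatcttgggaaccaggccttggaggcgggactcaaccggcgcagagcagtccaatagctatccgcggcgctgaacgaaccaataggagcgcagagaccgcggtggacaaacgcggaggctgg

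Enzymes of cholesterol synthesis also fell, with 15 of 19 tested lower, none higher and a median of -0.89. Cyp51, lanosterol demethylase, was at 121, 138 and 121 CPM in control medium and 29.1, 29.4 and 32.1 CPM in MPNST-CM (log2 -2.07 ± 0.10, adjusted p = 2.77e-15). Squalene epoxidase Sqle fell by 1.10 and Hmgcs1 by 0.99. The regulators Srebf2 and Insig1 fell by 0.67 and 1.45. Enzymes of fatty acid synthesis showed 6 of 10 lower and 2 higher. Fads2, the desaturase that starts the synthesis of long polyunsaturated fatty acids, fell from 86.0, 73.1 and 82.7 to 11.4, 11.8 and 9.87 CPM (log2 -2.87, adjusted p = 2.30e-16), and Scd1 fell by 1.37. Elovl6 rose by 1.18 and Acly by 0.38. With the batch 2 libraries added, 3 genes of the whole list of 36 tested fell, or 6 with the batch term, against 26 without these libraries.

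**Figure D2:**
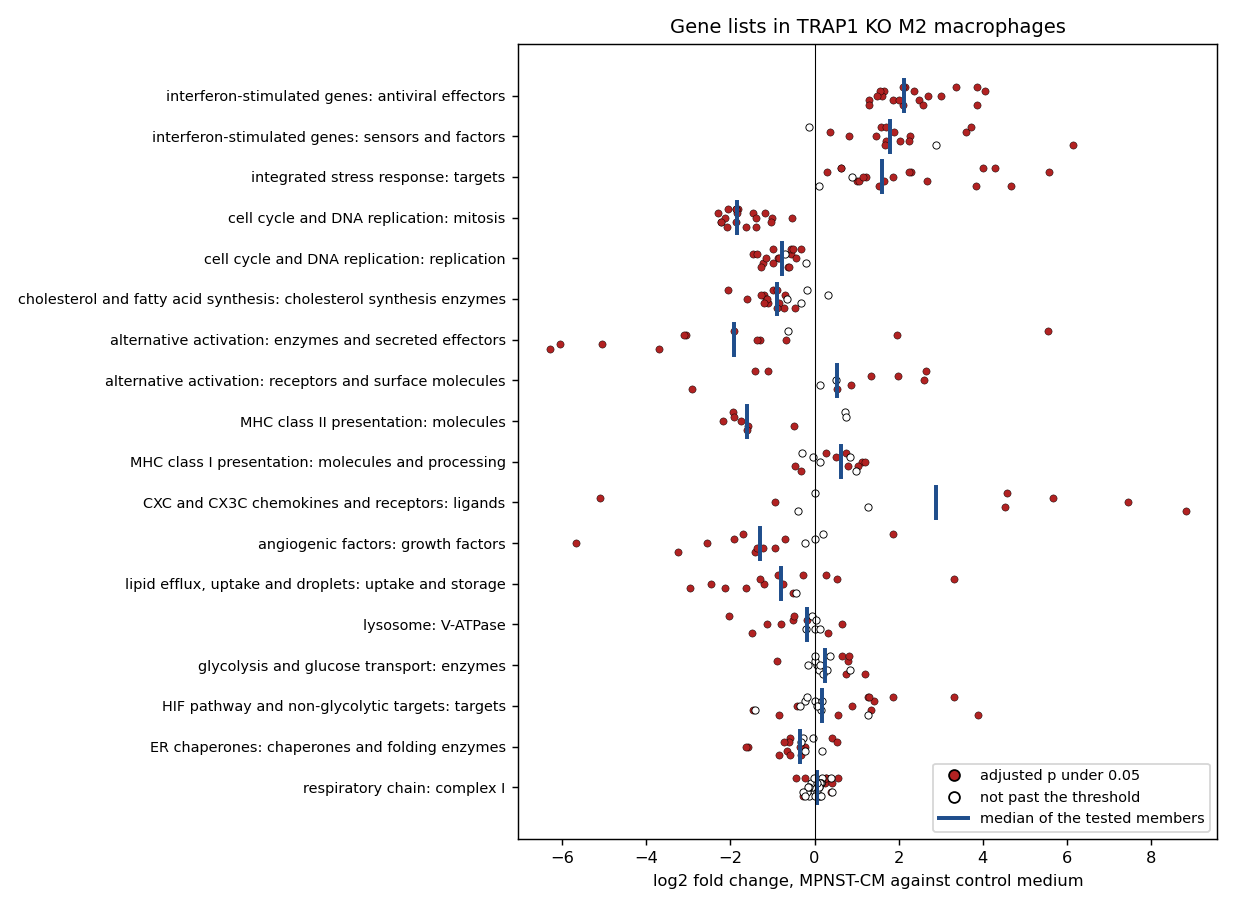
Log2 fold change in MPNST-CM against control medium (horizontal axis) of the tested members of 18 gene lists in TRAP1 KO M2 macrophages, 1 point per gene; red points passed an adjusted p of 0.05, open points did not, and blue bars mark the list medians. All red points of both interferon lists and of the stress response targets are to the right of 0, and all those of the mitosis, replication and cholesterol synthesis lists to the left.

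The same 4 programs were then compared with the response to MPNST-CM of WT M2 macrophages and of TRAP1 KO Mφ, each from 6 batch 1 libraries that are not among those above. In WT M2 macrophages 3330 genes changed (24.5%), 1524 higher (11.2%) and 1806 lower (13.3%), with a median log2 fold change of -0.03. In TRAP1 KO Mφ 4476 changed (32.9%), 2009 higher (14.8%) and 2467 lower (18.1%), with a median of -0.04. Of the 5016 genes that changed in TRAP1 KO M2 macrophages, 1864 moved the same way in WT M2 (37.2% of the KO list and 56.0% of the WT list) and 379 the opposite way. With TRAP1 KO Mφ, 2853 moved the same way (56.9% and 63.7% of the lists) and 196 the opposite way. The difference of the responses was tested as an interaction in the same fit. TRAP1 KO and WT M2 macrophages differed in 2751 genes (20.2%), of which 1274 had the higher log2 response in KO (9.36%) and 1477 the lower (10.8%). The higher calls were 46.3% of the total here, 36.2% without the low-count filter, and 33.9% and 33.1% with the batch 2 libraries, without and with a batch term. TRAP1 KO M2 macrophages and TRAP1 KO Mφ differed in 1564 genes (11.5%), 746 higher (5.48%) and 818 lower (6.01%) in M2.

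Cell cycle and cholesterol genes moved in opposite directions in the 2 genotypes of M2 macrophage. In WT M2, 17 of 19 mitosis genes and 16 of 18 replication genes rose, with none lower. The response of all 19 mitosis genes and of 17 replication genes was lower in KO by the interaction test. Mean Ccnb1 was 23.6 CPM in control medium and 45.4 CPM in MPNST-CM in WT M2, and 6.42 ± 0.727 CPM (SD, n = 3) in MPNST-CM in TRAP1 KO M2 from the control values above, a difference of the log2 responses of -3.16 (adjusted p = 5.2e-12). Of the cholesterol enzymes 18 of 19 rose in WT M2 and 18 had a lower response in KO. Cyp51 had means of 147 and 238 CPM in WT M2, against 127 and 30.2 CPM in TRAP1 KO M2 (difference -2.77, adjusted p = 5.8e-14). Fads2, at 47.4 and 127 CPM in WT M2, showed a difference of -4.30 (adjusted p = 8.6e-16). In TRAP1 KO Mφ 19 of 19 mitosis and 17 of 18 replication genes fell, as in the KO M2 cells, and 9 mitosis genes fell by less in M2. There, 9 of 19 cholesterol enzymes fell and none rose, and 11 of 19 had a lower response in M2 than in Mφ.

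The interferon-stimulated genes rose more widely in TRAP1 KO M2 macrophages than in either of the other groups. In WT M2, 14 of 20 effectors and 7 of 16 sensors and factors rose, while 1 and 3 fell. The response was higher in KO for 32 of the 36 and lower for 1, Ifitm3. In TRAP1 KO Mφ 4 of the 36 rose and 19 fell, and the response of 35 of the 36 was higher in TRAP1 KO M2. The levels in control medium differed between these groups. Ifit3 stood at 26.1 ± 2.33 CPM in TRAP1 KO M2, 13.9 in WT M2 and 385 in TRAP1 KO Mφ in control medium, and at 212 ± 4.59, 31.8 and 126 CPM in MPNST-CM. Isg15 likewise had means of 1.28 and 18.7 CPM in TRAP1 KO M2, 1.48 and 2.45 in WT M2, and 14.96 and 12.8 CPM in TRAP1 KO Mφ.

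Stress response targets rose in both TRAP1 KO groups. Of the 20 ATF4 targets 18 rose in TRAP1 KO M2, 17 in TRAP1 KO Mφ and 7 in WT M2, where 2 fell. For 16 targets the log2 response of KO M2 macrophages exceeded that of WT and for 1 it was lower, whereas between the KO groups 1 was higher and 2 lower in M2. Asns reached 119 ± 5.23 CPM in TRAP1 KO M2, 117 CPM in TRAP1 KO Mφ and 20.3 CPM in WT M2 in MPNST-CM, from 6.02, 7.99 and 12.3 CPM. The difference of its response from WT M2 was 3.58 (adjusted p = 1.4e-08), and that from KO Mφ 0.42 (adjusted p = 0.5). Trib3 reached 41.6, 39.6 and 3.20 CPM in the same groups. All comparisons with WT carry the difference in Xist given above. With the batch 2 libraries added, the genotype difference passed in 180 genes and the IL-4 difference in 407.

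**Figure D3:**
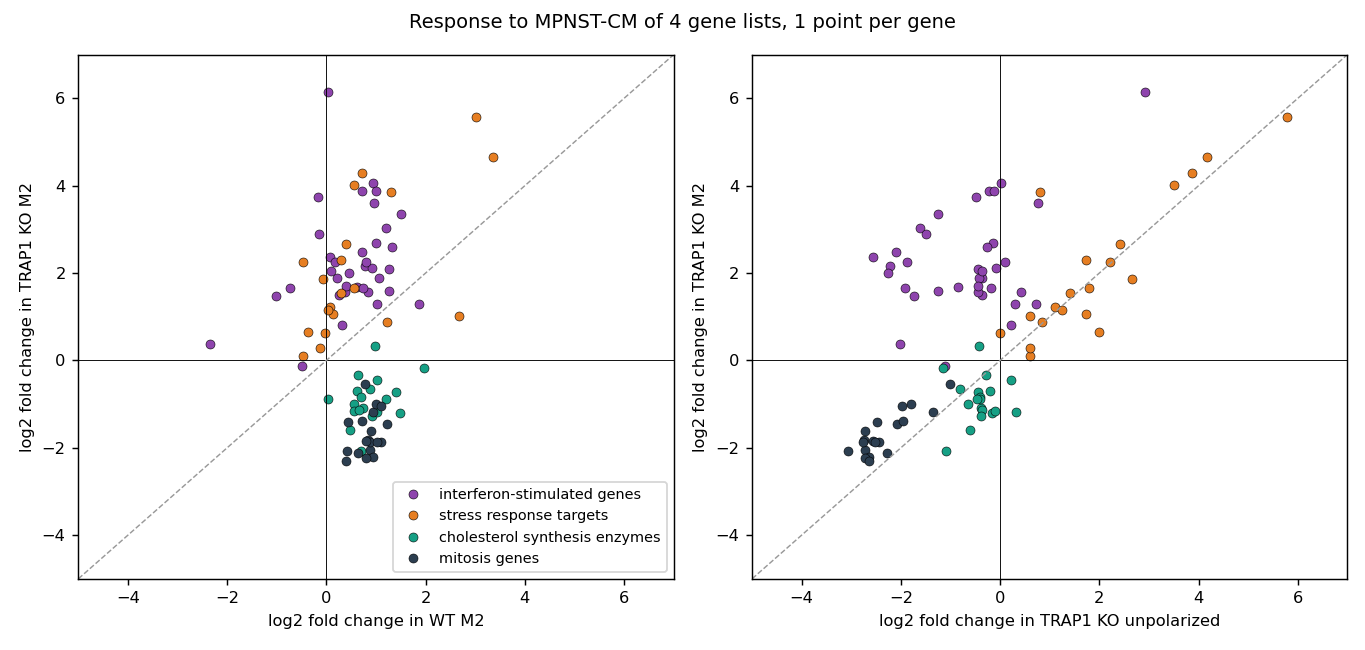
Log2 response to MPNST-CM of TRAP1 KO M2 macrophages (vertical axis) against that of WT M2 macrophages (left) and of TRAP1 KO unpolarized macrophages (right), 1 point per gene of 4 lists; the dashed line marks equal responses. Mitosis and cholesterol genes lie at lower right in the left panel (median 0.88 and 0.74 in WT, -1.85 and -0.89 in KO), and stress response targets lie along the line in the right panel.

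**Figure D4:**
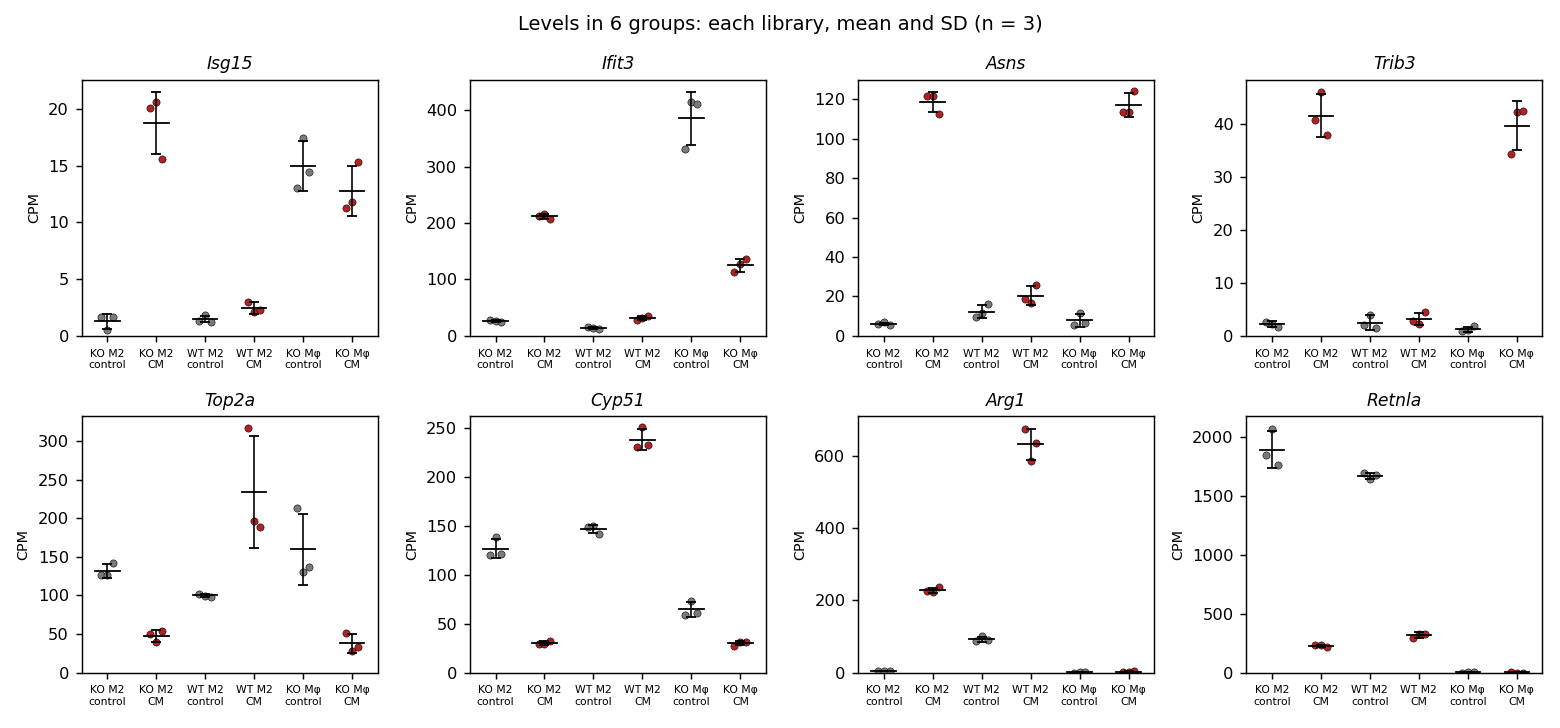
CPM of 8 genes in 6 groups, with each library as a point and lines for the mean and SD (n = 3 per group); gray is control medium and red MPNST-CM, on linear axes that start at 0. Asns and Trib3 are high in MPNST-CM in both TRAP1 KO groups, whereas Ifit3 is highest in TRAP1 KO unpolarized macrophages in control medium.

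The counts of the lists that follow are to be read against all genes tested, of which 16.7% rose and 20.2% fell. Genes of alternative activation split by role. Of 13 tested enzymes and secreted effectors 10 fell and 2 rose (median -1.91), whereas of 11 surface receptors 6 rose and 3 fell (median 0.52), and of 11 signaling and transcription factors 5 fell and 1 rose. Arg1, arginase 1, was at 5.55, 4.15 and 4.96 CPM in control medium and 227, 222 and 236 CPM in MPNST-CM (log2 5.55 ± 0.25, adjusted p = 2.54e-13). Retnla (FIZZ1) went the other way, from 1850, 2074 and 1763 to 231, 236 and 214 CPM (log2 -3.06 ± 0.15, adjusted p = 9.03e-14). These genes, both classic products of IL-4 signaling, therefore moved in opposite directions in the same libraries. Chil3 (YM1) fell by 1.31, Irf4 by 2.94, Egr2 by 2.64 and Pparg by 1.90. Ccl17 had 9, 6 and 11 counts in control medium and none in MPNST-CM (adjusted p = 5.32e-05). Of the lectin receptors, Clec10a rose from 32.3, 44.2 and 30.6 to 201, 235 and 215 CPM (log2 2.60) and Mgl2 rose too, while Clec7a, Dectin-1, fell from 901, 1030 and 938 to 126, 129 and 129 CPM (log2 -2.90, adjusted p = 1.25e-19). The receptor subunit Il4ra rose by 1.34. The Arg1 response was larger in KO than in WT M2 macrophages (difference 2.77, adjusted p = 1.3e-06), but from a lower start: WT M2 had 92.0 CPM in control medium and 632 in MPNST-CM, and TRAP1 KO M2 4.89 and 228. The response of Retnla differed by -0.67 (adjusted p = 0.019). Of the whole list 5 genes rose and none fell once the batch 2 libraries were added, against 9 and 18 without them.

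The markers that the study measured by RT-qPCR to grade M2-like and M1-like states were chosen by the study on cells of this kind and are not independent evidence of a direction. Of 11 tested, 7 rose and 1 fell. Mrc1, Arg1, Clec10a and Vegfa rose among the M2-like markers. Vegfa, vascular endothelial growth factor A, was at 63.2, 57.7 and 58.9 CPM in control medium and 217, 219 and 216 CPM in MPNST-CM (log2 1.86 ± 0.11, adjusted p = 1.67e-13). Tnf fell by 0.96, while Cd163 (log2 0.13, adjusted p = 0.702) and Mmp9 (-0.18, adjusted p = 0.184) did not pass. Among the M1-like markers, the Fc receptor Fcgr1 (CD64) rose from 59.7, 70.2 and 64.1 to 450, 446 and 437 CPM (log2 2.78) and Il1b from 3.30, 5.22 and 6.07 to 32.7, 34.1 and 40.2 CPM (log2 2.86). Nos2 had at most 4 counts in any of the 6 libraries and Arg2 at most 3. Hif1a, the oxygen-regulated factor, rose from 48.3, 50.1 and 50.3 to 110, 110 and 108 CPM (log2 1.14, adjusted p = 2.61e-11).

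Chemokine ligands moved widely. Of 12 CC ligands tested 7 rose and 5 fell. Ccl7 (MCP-3), which attracts monocytes, rose from 62.6, 48.3 and 57.4 to 588, 649 and 546 CPM (log2 3.41) and Ccl12 (MCP-5) from 6.15, 4.02 and 4.96 to 122, 142 and 115 CPM (log2 4.65). Ccl2 (MCP-1) was at 466, 279 and 457 CPM in control medium and 771, 759 and 756 CPM in MPNST-CM (log2 0.93, adjusted p = 0.0113); without control replicate 2 it gave 0.73 (adjusted p = 0.068). Of the CXC ligands 5 of 10 rose and 2 fell, and Cxcl2 went from 5.40, 1.34 and 6.34 to 224, 228 and 214 CPM (log2 5.68). Among the CC receptors Ccr1 and Ccr7 changed upward by 1.78 and 1.76 and Ccr2, Ccr3 and Ccrl2 downward by values of -1.79, -1.08 and -0.95. The fractalkine receptor Cx3cr1 fell by 4.14. The decoy receptor Ackr3 had no count in control medium and 20, 33 and 27 in MPNST-CM.

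Among angiogenic growth factors Vegfa was alone in rising. Of 14 tested, 10 fell and 1 rose, with a median of -1.30. In WT M2 macrophages 6 rose and 5 fell, and the KO response was lower for 9 and higher for 1 of the 14. Igf1, insulin-like growth factor 1, fell from 2625, 2879 and 2628 to 1002, 1070 and 1068 CPM (log2 -1.37), Pdgfa by 1.41, Pdgfb by 1.70, Hbegf by 2.56 and Angpt1, the TIE2 ligand, by 3.25. Vegfc, the lymphatic growth factor, had 5, 5 and 7 counts in control medium and none in MPNST-CM (adjusted p = 0.00141). Adding the batch 2 libraries left 2 genes of the whole angiogenic list higher and 1 lower, against 5 and 16 without them. Kdr, the VEGFA receptor, rose from 4.05, 5.36 and 3.59 to 42.1, 44.1 and 42.5 CPM (log2 3.30). It is 1 of the 4 endothelial markers listed. Of the others, Tek and Emcn had no count in the 6 libraries, and Cdh5 did not pass the filter on low counts. The source of the Kdr transcripts was not tested. Of the angiogenesis transcripts that the study names for M2 cells, Ccl2 and Ccl7 rose, Itgb3 fell by 0.87, and Ang (log2 -0.22, adjusted p = 0.303) and Mmp10 (0.37, adjusted p = 0.655) did not pass. Of the 14 tested transcripts of secreted proteins it names, 4 rose and 6 fell. Among matrix proteases 4 of 14 rose and 6 fell, including Mmp12 and the urokinase Plau (log2 -2.03). The integrins Itga1 and Itgb7 rose by 3.45 and 2.56, and Itgax (CD11c) fell from 765, 816 and 751 to 123, 120 and 121 CPM (log2 -2.68).

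Antigen presentation fell for class II. Of 9 tested class II molecules 7 fell (median -1.60), and the class II transactivator Ciita fell from 69.9, 59.6 and 71.4 to 4.63, 3.50 and 4.81 CPM (log2 -3.96, adjusted p = 2.68e-15). H2-Aa fell from 1191, 1165 and 1134 to 317, 293 and 304 CPM (log2 -1.93) and the invariant chain Cd74 by 1.75. The costimulatory molecule Cd86 rose in the same libraries from 7.505, 8.70 and 7.17 to 105, 107 and 103 CPM (log2 3.75) and Cd80 by 1.83. Over both class II lists 10 genes fell and 3 rose, against 1 and none when the batch 2 libraries were added. Of 14 class I genes 7 rose and 2 fell, with the immunoproteasome subunit Psmb9 at 1.14, whereas none rose and 6 fell in WT M2, and 8 had a higher response in KO. Inflammasome genes and innate receptors showed 9 of 17 higher and 3 lower, with the LPS co-receptor Cd14 up by 2.08, Nlrp3 by 1.53 and the decoy receptor Il1r2 by 4.68. The IL-33 receptor Il1rl1 fell by 2.91. Of the cytokines and enzymes 5 of 13 rose and 4 fell, and Il18 rose by 2.18. Of the 5 Fc gamma receptor genes 4 rose and Fcer1g fell by 0.31. Complement showed 5 of 11 higher, with the C5a receptor C5ar1 at 1.62, and 3 lower, with C3 at -1.48. Of the scavenger receptors 3 of 12 rose and 7 fell.

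Of 16 glycolysis enzymes 5 rose and 1 fell (median 0.25), and Pfkl and Ldha rose by 1.19 and 0.81 while Hk2 fell by 0.90. Gapdh was at 2.02 CPM in both media, in a counting that dropped reads of low mapping quality. In TRAP1 KO Mφ 12 of the 16 enzymes rose with a median of 1.01, and 8 had a lower response in M2. The lactate exporter Slc16a3 rose by 1.71, and the other 4 transporters fell, Slc2a6 from 82.6, 101 and 84.1 to 6.35, 5.99 and 6.45 CPM (log2 -3.83). Hypoxia-responsive genes other than those of glycolysis showed 9 of 21 higher and 3 lower. Among these Hilpda, a lipid droplet protein, rose from 37.1, 42.4 and 36.3 to 383, 392 and 386 CPM (log2 3.32), Ddit4 (REDD1) by 3.90 and Bnip3 by 1.43, while Ndrg1 fell by 1.46. The prolyl hydroxylases Egln1 and Egln3 rose by 1.06 and 3.38.

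Of 78 nuclear genes of the respiratory chain 9 rose and 14 fell, with a median of -0.02, where 16.7% of all genes tested rose and 20.2% fell. In WT M2 macrophages 43 of the 78 fell and none rose (median -0.31), and 26 had a higher response in KO and none a lower one. Complex II, which TRAP1 is known to inhibit, had 3 of 4 genes lower (median -0.27), with Sdha at -0.50. In WT M2 macrophages 3 of 4 also fell (median -0.40), and the response in KO was higher for 1 and lower for none. The muscle-type subunit Cox6a2 was at 1.20, 0.803 and 0.690 CPM in control medium and 20.5, 23.05 and 17.7 CPM in MPNST-CM (log2 4.497), against a fall of 2.15 in WT M2 macrophages. Uqcrq rose by 1.07. Of 23 enzymes of the TCA cycle 7 fell and none rose, and among mitochondrial chaperones and proteases 3 of 12 rose and 4 fell. Of 20 NRF2 targets 4 rose and 6 fell, with Gpx4 at 1.23 and Tkt at -1.37. The counts of these 3 lists also stand beside 16.7% higher and 20.2% lower over all genes, and nothing particular to their members is read from them. In iron handling, with 3 of 15 genes higher and 7 lower, the transferrin receptor Tfrc fell from 483, 506 and 507 to 40.5, 42.03 and 44.04 CPM (log2 -3.56 ± 0.09, adjusted p = 1.24e-20), against a fall of 0.59 in WT M2 (difference -2.97, adjusted p = 1.3e-15). Of 17 genes of glutamine and arginine metabolism 8 rose and 6 fell, with the polyamine enzyme Odc1 at 2.23, the argininosuccinate synthase Ass1 at -2.66 and the glutamine carrier Slc1a5 at -1.60.

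Lysosomal genes mostly fell, with 25 of 40 lower and 4 higher. The proton pump subunit Atp6v0a1 fell from 652, 744 and 644 to 169, 161 and 168 CPM (log2 -2.04), and the lysosomal regulators Mitf and Tfeb fell by 1.49 and 1.32. Ctsl and Ctsc, at 1.64 and 1.08, were the cathepsins that rose. In lipid uptake and storage 10 of 14 fell and 3 rose, with Fabp4 at -2.96, the lysosomal lipase Lipa at -2.13 and the fatty acid receptor Cd36 at -0.87, and in lipid efflux 5 of 8 fell while Abca1 rose by 0.57. Of 37 macrophage transcription factors 11 rose and 13 fell. Maf, at 317, 319 and 318 CPM in control medium and 1136, 1198 and 1120 CPM in MPNST-CM, rose by 1.86, Fos by 2.24 and Nr4a2 by 3.42, while Cebpa fell by 1.99 and Bhlhe40 by 2.03. TGF-beta and BMP genes showed 3 of 14 higher and 7 lower. All 10 genes of the Ms4a and Tmem176 group changed, 8 Ms4a genes upward, with Ms4a4c at 3.98 and Ms4a6b at 3.40, and both Tmem176 genes downward. Galectins and S100 proteins showed 5 of 13 higher and 6 lower. Of the neuropilins, plexins and semaphorins, receptors and ligands of cell guidance, 10 of 13 fell and 1 rose, with Plxnd1 at -1.37 and Nrp2 at -0.79.

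Markers of other cell types were mostly at low levels. The summed level of 9 neutrophil markers was 91.6 to 103 CPM in control medium and 32.01 to 43.03 CPM in MPNST-CM, most of it Mmp8, and Camp, Ltf and Retnlg had under 3 counts in each library. The sum of 7 dendritic cell markers was 9.77 to 13.8 and 17.3 to 19.7 CPM, with Cd209a at 0. The sums of 6 T cell markers (0.600 to 1.34 and 0.661 to 1.24 CPM), of 5 B cell markers (1.47 to 1.79 and 1.24 to 2.38 CPM) and of 7 fibroblast markers (2.34 to 4.65 and 1.98 to 3.29 CPM) overlapped between media. Those of 6 Schwann cell markers were 8.83 to 10.8 and 3.97 to 5.88 CPM, with Sox10 and Ngfr at 0. The sum of 4 NK cell markers was 1.61 to 3.15 and 0 to 0.529 CPM, and that of 5 mast cell and basophil markers 2.70 to 3.59 and 0.678 to 0.926 CPM. The 5 megakaryocyte markers summed to 358 to 429 and 8528 to 10284 CPM, of which Pf4 and Ppbp were nearly all, and 4 erythroid markers to at most 0.397 CPM. Their part in the results was not tested.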

How the data were processed

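Bone marrow macrophages were profiled by 3′ mRNA sequencing (QuantSeq, oligo-dT primed, single-end reads of 75 bases), which reads transcript ends. Where CPM of different genes were ranked or summed, the values are counts and not measured amounts of each transcript. The authors deposited 1 table of raw read counts for 50559 genes. According to the labels and the methods of the study, reads were trimmed (Trimmomatic), checked (FastQC), aligned (HISAT2), filtered for mapping quality under 20 (SAMtools) and counted with featureCounts; versions and the strand setting are not given in the sources used here. The labels name build mm39, the methods mm10. The filter can remove reads that align equally well to near-identical genes. Of the table's 32 columns, 5 matched no sample and were not used.

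The deposited counts of the 24 batch 1 libraries (7037684 to 9089792 counts each; 3 counts equal 0.330 to 0.426 CPM of the unscaled total) were fitted together in 8 groups of 3, which share an estimate of spread, with edgeR 4.0.16 (R 4.3.3, limma 3.58.1): TMM scaling, filterByExpr, robust quasi-likelihood test, 2-sided, Benjamini-Hochberg adjustment over all 13614 genes. Interactions tested the difference of 2 responses. Low-count intervals cover counting error only. The fit was tested on simulated data. Replicates differed by more than sampling noise (chi-square per degree of freedom 2.76 to 13.1). The highest values, 10.8 and 13.1, were those of the pairs that hold TRAP1 KO M2 control replicate 2.

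Named were the 12 largest log2 changes and the 6 largest CPM changes each way, both at 10 CPM or more without overlap. Also named were up to 4 members of each of 45 lists (815 genes) and those that describe its roles. The study's markers, Trap1, Xist and the 6 largest differences of responses each way were named too. Some genes named by this rule are not reported here. The members and lists were chosen with earlier results of these data known. Alternatives were median-of-ratios scaling, DESeq2 1.42.0, other filters, a replicate block, the compared groups alone, all 27 libraries with and without a batch term, a fold threshold and leaving out each library. Tables were handled with Python 3.11.15, pandas 2.3.3 and numpy 2.4.6. Promoter windows and their build came from RefSeq tables of GRCm38.p6, and no sequence was read by the coordinates of the counts.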

Additional observations from a re-analysis of the deposited data

Results flagged for a closer look

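Results are listed here because the response of TRAP1 KO M2 macrophages differed from that of another group by the interaction test of edgeR (adjusted p under 0.05). Groups of 3 libraries are too small for a check of outlying samples. Against WT M2 macrophages 2751 genes differed. The higher responses in TRAP1 KO were those of Cox6a2 (difference of log2 responses 6.65), Slfn1 (6.12), Slfn4 (5.88), Aqp9 (4.68), F5 (4.60) and Serpinb2 (4.19). Slfn1 and Slfn4 are related genes, and Slfn4 lost its call without M2_DMEM_wt replicate 3 (5.52, adjusted p = 0.125). With all 27 libraries the differences of Slfn1 (-0.0293), Slfn4 (-0.0408), F5 (-0.96) and Serpinb2 (-1.02) turned sign and did not pass. F5 went from 1.69 to 7.42 CPM in WT M2, against 3.04 to 326 CPM in TRAP1 KO M2.

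The lower responses were those of Fads2 (-4.30), Slco4a1 (-4.17), Tmem163 (-3.75), Cldn11 (-3.69), Nptx1 (-3.63) and Dnmt3aos (-3.60). Slco4a1, an organic anion transporter, fell from 95.7 to 41.6 CPM in TRAP1 KO M2 and rose from 26.6 to 209 CPM in WT M2. The tight junction protein Cldn11 fell from 7.75 to 1.66 CPM and rose from 21.3 to 58.9 CPM in WT M2. Mean Nptx1 went from 4.35 to 1.42 CPM in TRAP1 KO M2 and from 4.56 to 18.9 CPM in WT M2. None of these differences can be told apart from that in Xist.

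Against TRAP1 KO Mφ 1564 genes differed. The higher responses in M2 were those of Tlr5 (5.24), Ifit1bl1 (5.16), Cxcl10 (5.07), Ifit2 (4.93), Iigp1 (4.81) and Ifit3 (4.64). Tlr5, the flagellin receptor, had 0, 0 and 0 counts in control medium and 48, 65 and 74 in MPNST-CM in TRAP1 KO M2, and rose from 0.914 to 11.9 CPM in TRAP1 KO Mφ. With all 27 libraries its difference was -3.58, and those of Galnt9 and Rnase2a, given below, were 0.15 and 0.77, none past the threshold. The fitted difference of Tlr5 depends on the prior count, and the call was lost without any 1 of 4 control libraries, M2_DMEM_KO replicates 1, 2 and 3 and M0_DMEM_KO replicate 2 (adjusted p 0.0592 to 0.0794). Mean Cxcl10 was 6.999 and 5.27 CPM in TRAP1 KO M2 but 221 and 4.95 CPM in TRAP1 KO Mφ, and the interferon-inducible GTPase Iigp1 rose from 5.56 to 21.9 CPM in M2 and fell from 144 to 20.2 CPM in Mφ.

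Among the lower responses were those of Bex1 (-4.81), Fn1 (-4.55), Mmp8 (-4.05), Galnt9 (-3.24) and Rnase2a (-3.08). Mmp8, the neutrophil collagenase, fell from 85.7 to 32.5 CPM in TRAP1 KO M2 and rose from 25.6 to 161 CPM in TRAP1 KO Mφ. Rnase2a was at 0.391 and 0.250 CPM in TRAP1 KO Mφ, and its call was lost without M0_CM_KO replicate 1 (-2.69, adjusted p = 0.13).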

How the results depend on the processing

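Under other scalings, DESeq2, other filters, the replicate block and the compared groups alone, the 3 counts of genes moved by less than 1.5 times. Leaving out 1 library gave 4321 to 4611 genes for the M2 response, 2232 to 2566 for the genotype difference and 1319 to 1514 for the IL-4 difference. In deviations from the group means, same-numbered libraries correlated at 0.109, 0.0358 and 0.0408, and MPNST-CM replicate 2 correlated better with control replicate 1 (0.0397). Deviations from means of 3 libraries are tied to each other, so these values cannot decide whether replicate numbers pair the libraries. A replicate block gave 5446, 2711 and 1841 genes, or 5131, 2253 and 1726 with the compared groups alone. For the response, the block made a call of Cxcl10 (edgeR's adjusted p = 0.0474) and ended that of Smad6 (0.052). With the compared groups alone it made calls of Mmp9 (0.0425) and Timp1 (0.04) and ended those of Psmb9 (0.0715), Ccl2 (0.0524) and Clpx (0.0996). No scaling moved the median of all genes by over 0.1 on the log2 scale.

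A log2 threshold of 1 left 1940 genes (797 higher, 1143 lower), 1214 (415, 799) and 610 (376, 234). With all 27 libraries the response had 826 genes (403 higher, 423 lower), the genotype difference 180 (61, 119) and the IL-4 difference 407 (175, 232). With a batch term these were 988 (464, 524), 269 (89, 180) and 485 (209, 276). The batch 2 libraries resemble other groups than those of their labels, and the cause was not tested.

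With all 27 libraries, without and with a batch term, 267 of 394 values of the named genes lost their call without a change of sign. Another 100 stayed as they were, called or not called. The remaining 27 changed sign, none of them past the threshold. These were the log2 fold changes of Fth1 (-0.0144), Vegfa (-0.25), Ccl24 (0.17), Vegfc (0.0273), Oasl1 (-0.14), Tap1 (-0.14), Trib3 (-0.22), Slc25a37 (-0.13), Il1b (-0.20), Idh1 (0.12), Nr4a2 (-0.40), S100a9 (4.00), S100a8 (2.66), Cldn11 (0.15) and Rnase2a (0.21), and with a batch term those of Fth1 (-0.00754), Idh1 (0.13), S100a9 (0.97) and S100a8 (0.52). Among genotype differences they were Serpinb2 (-1.02), F5 (-0.96), Slfn4 (-0.0408) and Slfn1 (-0.0293), and among IL-4 differences Galnt9 (0.15), Tlr5 (-3.58, with a batch term -2.23) and Rnase2a (0.77). Of the 1326 values of 197 results recomputed without 1 library, 22 lost their call and 3 gained one.

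Single low genes set the limits of depth: at under 1 CPM a library held few reads, and the absence of Ccl17 or Vegfc in MPNST-CM says only that they were not detected at this depth.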

Other observations

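Some gene families that reach beyond the lists above were read after their values were seen, by the shared stem of their symbols, and no family was tested. The interferon-stimulated list already held Gbp2, Gbp3, Gbp5, Ifi204, Ifi205, Ifi213, Slfn1 and Slfn5. The counts of the Gbp, Ifi200 and Schlafen genes therefore repeat in part those of that list. All 7 guanylate-binding protein genes (Gbp), GTPases induced by interferons, rose in TRAP1 KO M2 macrophages with a median log2 fold change of 2.25, among them Gbp4 (3.65), Gbp7 (2.69) and Gbp2 (0.37). In WT M2 macrophages 1 rose and 4 fell, and in TRAP1 KO Mφ 3 fell. All 7 had a higher response in TRAP1 KO M2 than in either. Of 11 genes of the Ifi200 family of DNA sensors 10 rose (median 2.84), with Ifi206 at 4.09, Ifi211 at 2.59 and Ifi209 at 2.34. Their reads may be lost or assigned to either of near-identical copies. Of 7 Schlafen genes 5 rose (median 1.61), including Slfn5 (1.70) and Slfn8 (1.61).

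The Clec4 lectin receptors split, with 5 of 7 higher and 2 lower. Clec4e (Mincle), a receptor for mycobacterial glycolipids and dead cells, rose from 14.7, 18.3 and 14.3 to 242, 253 and 230 CPM (log2 3.93), Clec4n (Dectin-2) by 3.21 and Clec4d by 2.18, while Clec4b1 fell by 2.57. Of 8 coagulation genes 2 rose and 6 fell. F5 and the anticoagulant receptor Thbd (0.55) rose, whereas F7 and F10, other factors of the cascade, fell by 1.70 and 2.03. Of the 13 mitochondrially encoded mRNAs 8 fell and none rose (median -0.95). ND1 fell by 1.04, and COX1 had a log2 fold change of -0.14 (adjusted p = 0.295).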
